A study of Homo sapiens with 8 samples.

Results

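Transcripts of the matrix proteases and their inhibitors were measured by mRNA-seq in Panc-1 cells, a human pancreatic carcinoma line. The 9 genes were the matrix metalloproteinases MMP2, MMP9, MMP14 and MMP17, the disintegrin metalloproteinase ADAM19, the metalloproteinase inhibitors TIMP1 and TIMP2, and the urokinase genes PLAU and PLAUR. They were chosen by name as a functional group, with earlier results of these data known. Only genes present among the 13307 of the expression table were kept, and all 9 were present. Counts of members past a threshold therefore describe the group and are no test of it. Panc-1 cells received a control siRNA (siControl) or siRNA against PHF13 (siPHF13), a reader protein of methylated histone H3, by lipid transfection. Both kinds of cells were then left untreated or were cultured with 10 ng/ml TGFβ for 48 h, which gave 4 groups (siControl, siPHF13, siControl + TGFβ and siPHF13 + TGFβ) with 2 libraries each. All libraries came from 1 cell line, and the untreated groups had gone through the same transfection. The experiment asked how loss of PHF13 changes the response to TGFβ, a cytokine that drives epithelial-mesenchymal transition.

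Matrix metalloproteinases are secreted or membrane-bound zinc enzymes that are made as inactive proforms and cut collagens, laminins and other matrix proteins once activated. TIMPs block their active sites, and at the cell surface a complex of MMP14 with TIMP2 also recruits and activates pro-MMP2, so that an inhibitor takes part in activation. In the plasminogen system the urokinase protease PLAU binds its receptor PLAUR and turns plasminogen into plasmin. Pancreatic carcinomas have a dense matrix, and TGFβ is a known regulator of several of these genes. Transcript levels measured here say nothing of proform activation or of enzyme activity.

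The start sites of 4 of the genes are shown to let the upstream sequences be read beside the changes of their transcripts. ADAM19 and MMP14 are proteases that TGFβ raised both in siControl and in PHF13-depleted cells. PLAU and PLAUR are an enzyme and its receptor that differed in their response. The 250 bases before the start site come from RefSeq on GRCh38.p14, and ADAM19, MMP14, PLAU, PLAUR and TIMP1, 5 of the 9 genes, were matched. MMP2, MMP9, MMP17 and TIMP2 were not matched in the set of sequences used here. PLAU has 2 start sites there, of which the downstream one is printed. Capitals mark, on either strand, the AP-1 motif TGANTCA, the SMAD motif CAGAC, the E-box CACCTG of SNAI and ZEB factors, and the TATA box TATAAA, none of which overlapped in these sequences.
ADAM19 promoter (chr5:157575776-157576025, minus strand): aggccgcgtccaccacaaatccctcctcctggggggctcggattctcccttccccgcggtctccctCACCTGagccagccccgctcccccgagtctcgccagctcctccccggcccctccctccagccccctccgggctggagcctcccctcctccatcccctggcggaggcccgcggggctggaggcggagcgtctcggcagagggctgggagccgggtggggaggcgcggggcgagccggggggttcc
MMP14 promoter (chr14:22836335-22836584, plus strand): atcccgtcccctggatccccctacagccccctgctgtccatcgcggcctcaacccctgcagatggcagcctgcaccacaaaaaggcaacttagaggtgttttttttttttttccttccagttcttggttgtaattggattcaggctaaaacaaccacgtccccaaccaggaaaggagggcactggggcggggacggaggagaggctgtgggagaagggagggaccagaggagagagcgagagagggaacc
PLAU promoter (chr10:73910882-73911131, plus strand): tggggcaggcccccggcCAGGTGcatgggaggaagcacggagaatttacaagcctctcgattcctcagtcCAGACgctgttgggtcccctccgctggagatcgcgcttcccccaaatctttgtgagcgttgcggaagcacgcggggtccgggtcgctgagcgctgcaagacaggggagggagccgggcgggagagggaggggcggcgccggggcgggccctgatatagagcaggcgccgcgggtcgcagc
PLAUR promoter (chr19:43670170-43670419, minus strand): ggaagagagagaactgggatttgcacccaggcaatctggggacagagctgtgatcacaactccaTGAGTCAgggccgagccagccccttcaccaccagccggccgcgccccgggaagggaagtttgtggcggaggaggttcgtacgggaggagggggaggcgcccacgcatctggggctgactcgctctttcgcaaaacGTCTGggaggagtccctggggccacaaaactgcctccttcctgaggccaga
In the PLAUR sequence the AP-1 motif lay from -186 to -180 and the SMAD motif, as GTCTG, from -51 to -47 of the start site. The PLAU sequence held an E-box from -233 to -228 and a SMAD motif from -180 to -176, and the ADAM19 sequence held an E-box from -184 to -179. MMP14 had none of these 4 motifs, and a GC box, GGGCGG, from -66 to -61 that is left in lower case. The printed PLAU sequence held 3 GC boxes, also in lower case, from -66 to -61, -51 to -46 and -40 to -35. The unprinted PLAU sequence held none of these motifs and no GC box. Of 35116 human promoter sequences of the same length, 6.57% held the AP-1 motif, 38.0% the SMAD motif, 17.5% the E-box, 10.7% the TATA box and 42.6% the GC box. Over the 6 sequences of the 5 genes, the numbers with a match were 1, 2, 2, 0 and 3 in the same order. A match is a run of letters and was not tested for binding.

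In the table each value is a normalized count, that is, reads on a gene divided by a size factor of its library. Depth was 39196214 to 46700806 reads on genes in the 8 libraries. PHF13 itself had 1804 and 1662 normalized counts in siControl, 524 and 558 in siPHF13, 1586 and 1709 in siControl + TGFβ and 513 and 529 in siPHF13 + TGFβ. Its fold change with the siRNA was 0.313 without TGFβ and 0.317 with TGFβ. Replicates differed by 3.65 to 23.6 times the counting variance, the most in siPHF13 + TGFβ, so they were not the same library. Nothing states that they came from separate cultures, and p-values measure only the spread between these libraries, which may be technical. All 6 epithelial markers had values, and their sum, most of it KRT8, KRT18 and KRT19, was lower with TGFβ. It was 193827 to 204434 in siControl, 171871 to 194633 in siPHF13, 121810 to 127490 in siControl + TGFβ and 138488 to 150248 in siPHF13 + TGFβ normalized counts. In siControl cells KRT7 did not fall with TGFβ (426 and 414 against 440 and 427). With depletion alone CDH1 fell from 403 and 460 to 106 and 233, while EPCAM and KRT19 rose. Of 7 leukocyte markers only CD68, CD14 and ITGAM, of 5 endothelial markers only KDR and of 7 acinar and islet markers only CEL had values, and PTPRC, PECAM1 and PRSS1 had none. The leukocyte sum, most of it CD68, was higher with depletion: it was 7487 to 7567 in siControl, 12003 to 13149 in siPHF13, 6262 to 7845 in siControl + TGFβ and 10652 to 13488 in siPHF13 + TGFβ normalized counts. CD14 and ITGAM went the other way with depletion alone. CD14 had 78.7 and 74.8 in siControl and 41.8 and 47.3 in siPHF13, and ITGAM had 128 and 177, and 58.7 and 55.2. Of 9 fibroblast and stellate markers, PDGFRB, THY1 and COL1A1 had values while DCN, LUM and COL1A2 had none, and their sum, most of it COL1A1, moved with the groups. It was 3653 to 3754 normalized counts in siControl, 2073 to 2168 in siPHF13, 15699 to 16904 in siControl + TGFβ and 4980 to 5258 in siPHF13 + TGFβ, and the part of these 3 sums in the results was not tested. In bulk RNA a smaller share of expressing cells and less RNA per cell cannot be told apart.

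Per kilobase of exon, with length taken over all annotated transcripts, the 9 genes spanned a wide range of levels. In siControl cells PLAU stood highest at 16227 normalized counts per kb, followed by TIMP1 at 5703 and MMP2 at 1163. TIMP2 (500 per kb), MMP17 (334), MMP14 (305), PLAUR (279), ADAM19 (207) and MMP9 (50.4) lay below. The libraries of neighbouring genes in this order did not overlap. With TGFβ the order in siControl cells changed in its middle, where ADAM19 (1066 per kb) came to stand above TIMP2 (881), MMP14 (769), MMP17 (585) and PLAUR (378), behind PLAU (12087), TIMP1 (5776) and MMP2 (4389). MMP9 remained lowest in every group, between 28.9 and 119 per kb.

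**Figure D1:**
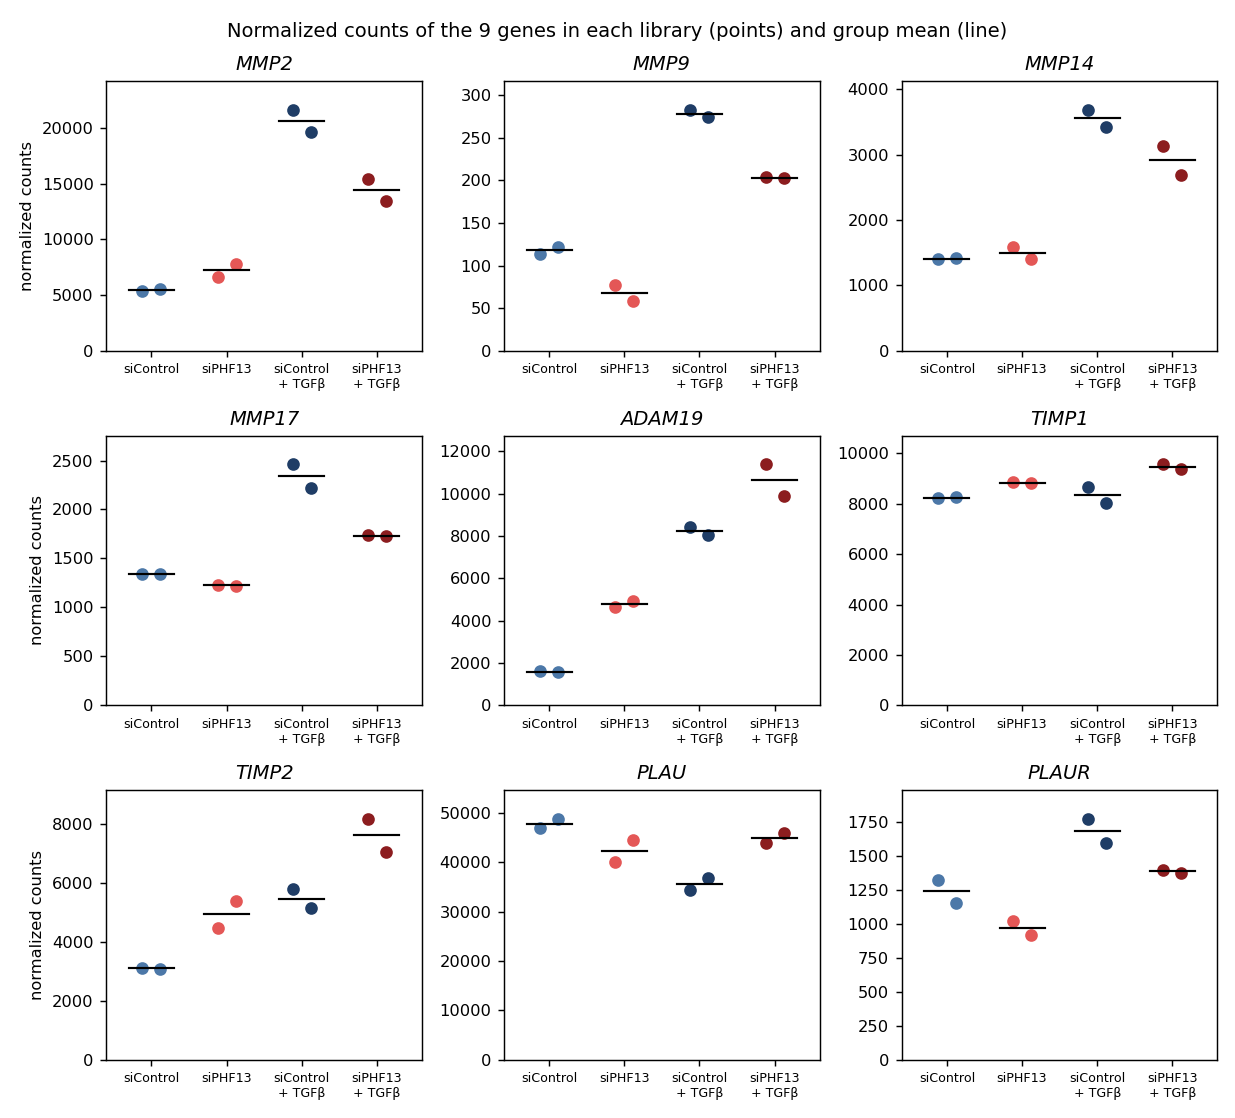
Normalized counts (vertical axes, starting at 0) of the 9 genes in the 2 libraries of each group (points), with the group mean as a line. TGFβ-treated siControl libraries lie below the siControl libraries for PLAU, on both sides of them for TIMP1 and above them for the other genes. The share of all genes that separate in this way was not computed, so this describes the panels only.

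TGFβ raised 6 of the 9 genes in siControl cells past both thresholds, which were an adjusted p below 0.05 (limma, Benjamini-Hochberg adjustment over all genes) and a log2 change beyond 0.58 either way. The background was 3.27% of all tested genes called higher and 4.79% called in either direction. The raised genes were MMP2, MMP9, MMP14, MMP17, ADAM19 and TIMP2, that is, all 5 metalloproteinases and 1 of the inhibitors. The median log2 fold change of the 9 genes was 0.81, beside -0.01 over all genes. No gene of the 9 was called lower.

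ADAM19, a membrane-bound protease that sheds growth factor precursors, lies on the minus strand of chromosome 5 of GRCh37 from 156822542 to 157002783. It had 1619 and 1565 normalized counts in siControl, 4634 and 4912 in siPHF13, 8412 and 8019 in siControl + TGFβ and 11376 and 9879 in siPHF13 + TGFβ. The 4 groups were in steps without overlap, lowest in siControl and highest in siPHF13 + TGFβ. TGFβ raised it 5.16-fold in siControl cells (log2 fold change 2.37, 95% interval 2.21 to 2.52, adjusted p = 1.03e-10 from limma), the 4th smallest p of all genes. Depletion alone raised it 2.996-fold (log2 fold change 1.58, standard error 0.07, adjusted p = 3.26e-09 from limma). Its exons share 62 of 7704 bases with CYFIP2 on the other strand, which had 0.986 to 16.2 normalized counts.

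MMP2, a secreted gelatinase that cuts denatured collagen and basement membrane collagen, lies on the plus strand of chromosome 16 from 55423612 to 55540603. It had 5366 and 5576 normalized counts in siControl, 6666 and 7826 in siPHF13, 21622 and 19682 in siControl + TGFβ and 15443 and 13440 in siPHF13 + TGFβ. Both siControl + TGFβ libraries were above both siPHF13 + TGFβ libraries, which in turn were above all untreated ones. With TGFβ it rose 3.77-fold in siControl cells (log2 fold change 1.91, 95% interval 1.73 to 2.10, adjusted p = 4.74e-09 from limma).

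MMP14, the membrane-anchored protease that activates pro-MMP2, lies on the plus strand of chromosome 14 from 23305769 to 23318250. It had 1405 and 1418 normalized counts in siControl, 1584 and 1404 in siPHF13, 3686 and 3427 in siControl + TGFβ and 3131 and 2698 in siPHF13 + TGFβ. The siPHF13 libraries lay on both sides of the siControl libraries, and all treated libraries were above all untreated ones. TGFβ raised it 2.52-fold in siControl cells (log2 fold change 1.33, 95% interval 1.14 to 1.52, adjusted p = 2.42e-07 from limma).

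MMP17, a membrane-type metalloproteinase held by a lipid anchor, lies on the plus strand of chromosome 12 from 132312938 to 132336328. It had 1337 and 1336 normalized counts in siControl, 1232 and 1221 in siPHF13, 2460 and 2222 in siControl + TGFβ and 1740 and 1727 in siPHF13 + TGFβ. The 4 groups did not overlap, and siControl + TGFβ was highest. Its rise with TGFβ in siControl cells was 1.75-fold (log2 fold change 0.81, adjusted p = 1.07e-05 from limma).

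MMP9, the other secreted gelatinase, lies on the plus strand of chromosome 20 from 44637547 to 44645200 and was by far the least abundant of the 9 genes. It had 114 and 122 normalized counts in siControl, 76.6 and 58.2 in siPHF13, 282 and 274 in siControl + TGFβ and 204 and 202 in siPHF13 + TGFβ. The 4 groups did not overlap, with siPHF13 lowest. TGFβ raised it 2.35-fold in siControl cells (log2 fold change 1.23, 95% interval 0.82 to 1.65), the widest interval among the 9 genes. Of its exon bases, 18.4% are shared with the antisense transcript SLC12A5-AS1, and no strand setting of the counting is stated, so reads of the pair cannot be told apart.

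The inhibitors did not move as a pair. TIMP2, on the minus strand of chromosome 17 from 76849059 to 76921469, had 3129 and 3086 normalized counts in siControl, 4492 and 5401 in siPHF13, 5793 and 5149 in siControl + TGFβ and 8187 and 7077 in siPHF13 + TGFβ. Both siControl libraries were lowest, both siPHF13 + TGFβ libraries were highest, and the other two groups overlapped. It rose 1.76-fold with TGFβ in siControl cells (log2 fold change 0.81, adjusted p = 4.70e-05 from limma) and 1.58-fold with depletion alone (log2 fold change 0.66, adjusted p = 5.72e-05 from limma).
TIMP1, a broad inhibitor of secreted metalloproteinases, lies on the plus strand of chromosome X from 47441807 to 47446188. It had 8221 and 8273 normalized counts in siControl, 8847 and 8818 in siPHF13, 8670 and 8033 in siControl + TGFβ and 9565 and 9397 in siPHF13 + TGFβ. The siControl + TGFβ libraries lay on both sides of the siControl libraries. No comparison of TIMP1 passed both thresholds, and its log2 difference with TGFβ in siControl cells was 0.02 with a 95% interval from -0.11 to 0.14.

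The enzyme and the receptor of the urokinase pair differed in their response to TGFβ. PLAU, on the plus strand of chromosome 10 from 75668935 to 75677254, had 46882 and 48827 normalized counts in siControl, 40099 and 44450 in siPHF13, 34415 and 36876 in siControl + TGFβ and 44034 and 45917 in siPHF13 + TGFβ. Both siControl + TGFβ libraries were the lowest of the 8, and the siPHF13 and siPHF13 + TGFβ libraries overlapped. The log2 difference with TGFβ in siControl cells was -0.43 (95% interval -0.57 to -0.28, adjusted p = 0.000588 from limma), past the p threshold and short of the fold threshold. In PLAU 31.0% of the exon bases are shared with C10orf55 on the other strand, which had 46.9 to 90.8 normalized counts. As no strand setting is stated, reads of this pair cannot be told apart either.
PLAUR, on the minus strand of chromosome 19 from 44150247 to 44174699, had 1326 and 1158 normalized counts in siControl, 1020 and 919 in siPHF13, 1775 and 1598 in siControl + TGFβ and 1397 and 1377 in siPHF13 + TGFβ. No groups overlapped, and siPHF13 was lowest. The log2 difference with TGFβ in siControl cells was 0.44 (95% interval 0.24 to 0.65, adjusted p = 0.00564 from limma), again short of the fold threshold.

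**Figure D2:**
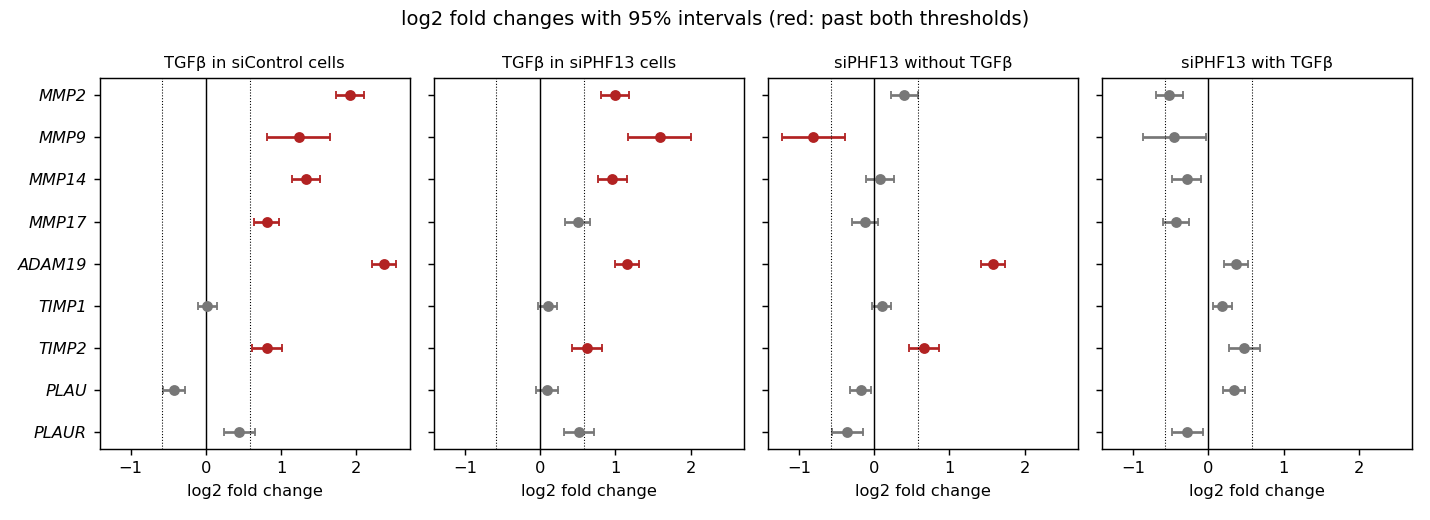
log2 fold changes (horizontal axes) of the 9 genes in 4 comparisons, with 95% intervals from limma. Red points passed both thresholds and dotted lines mark a log2 fold change of 0.58 in each direction: 6, 5, 3 and 0 genes are red from left to right.

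Depletion of PHF13 without TGFβ called 3 of the 9 genes, beside 18.4% of all genes. ADAM19 and TIMP2 rose (background for a rise 7.95%) and MMP9 fell (background for a fall 10.4%). The call of TIMP2 was lost without siPHF13 replicate 2, where its log2 fold change was 0.53. The fall of MMP9 was to 0.571 of its siControl level (log2 fold change -0.81, 95% interval -1.23 to -0.39, adjusted p = 0.00364 from limma). MMP2 was higher in both depleted libraries, with a log2 difference of 0.40 (95% interval 0.22 to 0.58) that was short of the fold threshold. PLAUR was lower in both, with a difference of -0.36, and PLAU was lower in both, with -0.18. With the adjusted p of limma alone, 6 of the 9 passed, beside 47.4% of all genes. The differences of MMP14 (0.08, 95% interval -0.11 to 0.27) and MMP17 (-0.12, 95% interval -0.29 to 0.04) had intervals that included 0. The median of the 9 genes was 0.08.

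In TGFβ-treated cells depletion called 0 of the 9 genes past both thresholds, beside 20.5% of all genes. With the adjusted p of limma alone, 8 of the 9 passed, 4 higher and 4 lower, beside 50.4% of all genes (24.5% higher and 25.9% lower). The 4 higher were TIMP2 (log2 difference 0.48), ADAM19 (0.37), PLAU (0.34) and TIMP1 (0.18). The 4 lower were MMP2 (-0.52, 95% interval -0.70 to -0.34), MMP17 (-0.43), MMP14 (-0.29) and PLAUR (-0.28). MMP9 was lower in both libraries with a difference of -0.45, and did not pass (adjusted p = 0.0677 from limma). Among treated cells the 4 matrix metalloproteinases and PLAUR thus had values below those of siControl + TGFβ. The proteases ADAM19 and PLAU had values above them, as had both inhibitors. TIMP1 was at -0.05 under a correction for GC content and exon length. Without siPHF13 + TGFβ replicate 1 the difference of MMP2 was -0.62 and past both thresholds. MMP2 was also past both thresholds without siControl + TGFβ replicate 2 (-0.59), and TIMP2 without siPHF13 + TGFβ replicate 2 (0.58).

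In PHF13-depleted cells TGFβ raised 5 of the 9 genes past both thresholds, beside 1.13% of all genes called higher and 1.35% in either direction. These were MMP9 (3.01-fold, log2 fold change 1.59), ADAM19 (2.22-fold, 1.15), MMP2 (1.99-fold, 1.00), MMP14 (1.95-fold, 0.96) and TIMP2 (1.55-fold, 0.63), with adjusted p between 7.07e-07 and 0.00133 from limma. MMP17 (0.50) and PLAUR (0.52) were higher in both treated libraries and fell short of the fold threshold. PLAU (0.09, 95% interval -0.05 to 0.23) and TIMP1 (0.10, 95% interval -0.02 to 0.23) had intervals that included 0. The call of TIMP2 rested on siPHF13 replicate 1 and siPHF13 + TGFβ replicate 1: without them it was 0.50 and 0.52.

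The comparisons above share libraries: the siControl libraries serve both for TGFβ and for depletion, and the siControl + TGFβ libraries for TGFβ and for depletion under TGFβ. The response to TGFβ in depleted cells minus that in siControl cells was therefore tested as an interaction over all 8 libraries. It was called for 2 of the 9 genes, ADAM19 and MMP2, both lower, beside 0.248% of all genes called lower and 0.308% in either direction. ADAM19 had a difference of -1.21 on the log2 scale (95% interval -1.44 to -0.99, adjusted p = 0.000117 from limma), with the 2nd smallest p of all genes. MMP2 had -0.92 (95% interval -1.18 to -0.66, adjusted p = 0.00298 from limma), with the 12th smallest.

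The levels behind these 2 differences were not alike. The rise of MMP2 went from 3.77-fold to 1.99-fold, leaving 52.0% of its log2 response, and its treated level was lower in depleted cells. For ADAM19 the rise went from 5.16-fold to 2.22-fold, leaving 48.7%, while its treated level was higher in depleted cells and its untreated level 2.996 times that of siControl. On the linear scale TGFβ added 15181 ± 975 (SE) normalized counts of MMP2 in siControl cells and 7195 ± 1157 in siPHF13 cells. It added 6623 ± 199 normalized counts of ADAM19 in siControl cells and 5855 ± 761 in siPHF13 cells. For ADAM19 the ranges of these increments between single libraries, 6400 to 6847 and 4968 to 6742, overlapped, and for MMP2, 14106 to 16256 and 5614 to 8777, they did not.

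For the other 7 genes the difference in response did not pass both thresholds. With the adjusted p alone, 3 of the 9 passed beside 0.413% of all genes, the third being PLAU, which was among the 0.0902% of genes higher. Its value was a difference of 0.52 (95% interval 0.31 to 0.72, adjusted p = 0.0316 from limma), from a lower level with TGFβ in siControl cells to near no difference in depleted cells. The intervals were -0.64 to -0.10 for MMP14, -0.54 to -0.07 for MMP17, -0.47 to 0.10 for TIMP2, -0.23 to 0.95 for MMP9, -0.21 to 0.37 for PLAUR and -0.09 to 0.26 for TIMP1. Those of MMP14 and MMP17 did not include 0, but the intervals are not adjusted for the number of genes. The adjusted p of the interaction was 0.300 for MMP14 and 0.341 for MMP17 from limma. All these intervals still hold sizeable differences, with the widest for MMP9, so equal responses are not shown.

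**Figure D3:**
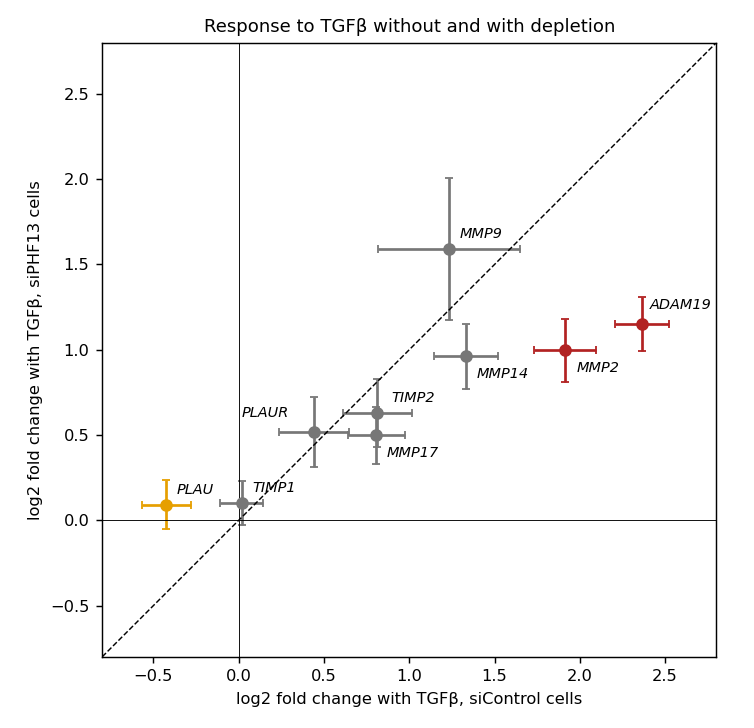
log2 fold change with TGFβ in siControl cells (horizontal) against that in siPHF13 cells (vertical) for the 9 genes, with 95% intervals and the line of equal response. ADAM19 and MMP2 (red, called for the difference) lie well below the line, and PLAU (orange, past the adjusted p alone) lies above it.

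Relations of enzyme transcripts to those of their inhibitors or receptor were followed within each library as log2 differences, given without a test. MMP2 minus TIMP2 was 0.78 and 0.85 in siControl, 0.57 and 0.54 in siPHF13, 1.90 and 1.93 in siControl + TGFβ and 0.92 and 0.93 in siPHF13 + TGFβ. Relative to siControl, the MMP2 to TIMP2 ratio was thus 2.15 with TGFβ alone, 0.833 with depletion alone and 1.08 with both. The ratio of MMP14 to TIMP2 was 1.43, 0.667 and 0.840 in the same order, and its 2 siPHF13 libraries were apart, at log2 differences of -1.503 and -1.94. That of MMP9 to TIMP1 was 2.32, 0.533 and 1.496. The ratio of PLAU to PLAUR was 0.548, 1.13 and 0.840. In each of the 4 pairs, cells with both treatments lay between those with depletion alone and those with TGFβ alone.

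**Figure D4:**
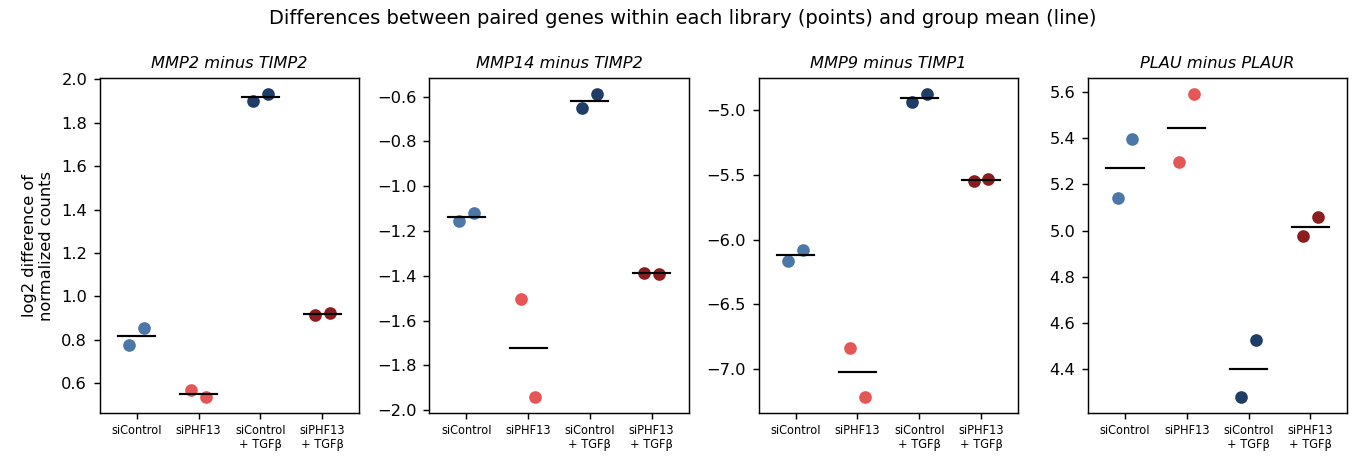
Difference of log2 normalized counts (vertical axes, not starting at 0) between 2 genes within each library (points) for 4 enzyme and inhibitor or receptor pairs, with group means as lines. The siPHF13 + TGFβ libraries lie between the siPHF13 and the siControl + TGFβ libraries in each panel.

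The other genes of the network were followed in lists of 90 genes, of which 54 had values. With TGFβ in siControl cells 9 of the 54 rose and 0 fell past both thresholds (median log2 fold change 0.14), beside 3.27% of all genes called higher and 4.79% in either direction. None of the 9 other matrix metalloproteinases with values was among them: MMP1, the interstitial collagenase, differed by 0.24 and MMP7, matrilysin, by 0.01. Genes next to the members in the network did rise. FURIN, the convertase that removes the propeptide of MMP14, went from 4791 and 4665 to 11122 and 10329 normalized counts (log2 fold change 1.18, adjusted p = 8.77e-08 from limma) and rose by 0.65 in depleted cells. SERPINE2, a serpin, rose by 1.17, and LRP1, the endocytic receptor that clears protease and inhibitor complexes, by 0.72. Of 10 ADAMTS proteases with values 3 rose, ADAMTS7 by 2.42, ADAMTS10 by 1.31 and ADAMTS15 by 0.89, and so did the cathepsin CTSC (0.60) and the secreted serine protease HTRA1 (0.73).

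With depletion alone 9 of the 54 genes rose, beside 7.95% of all genes, and 8 fell, beside 10.4%. ADAMTS15 (1.37) and ADAMTS10 (1.52) rose as ADAM19 did, while ADAMTS7, which cuts the cartilage matrix protein COMP, fell from 93.9 and 87.4 to 22.9 and 9.86 normalized counts (-2.51). Among metalloproteinases MMP24 rose by 1.32 and MMP15 fell by 1.21 on the log2 scale. CTSS, an elastin-cutting cathepsin, fell from 1560 and 1527 to 282 and 312 normalized counts (-2.38), while CTSL rose by 0.71. S100A10, a plasminogen receptor subunit, fell from 22983 and 23439 to 12398 and 12192 (-0.92). The surface protease TMPRSS2 fell (-1.24) and SPINT1, an inhibitor of such proteases, rose (1.07).

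With depletion in TGFβ-treated cells 7 rose and 10 fell, beside 20.5% of all genes called in either direction. MMP24 (1.31), ADAMTS10 (0.73), ADAMTS15 (0.73), CTSL (0.72) and SPINT1 (0.67) were among those that rose. ADAMTS7 (-2.47), CTSS (-2.18), S100A10 (-0.80) and LRP1 (-0.72) were among those that fell. In depleted cells TGFβ raised 3 of the 54 and lowered 1, ADAMTS1 (-1.30), beside 1.35% of all genes called. For the interaction 1 of the 54 was called, beside 0.308% of all genes: ADAMTS15, at -0.64 (adjusted p = 0.00812 from limma), the same direction as ADAM19. Its untreated level in depleted cells, 7684 and 8165 normalized counts, was above that of siControl cells, 3006 and 3136, a feature it shared with ADAM19.

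**Figure D5:**
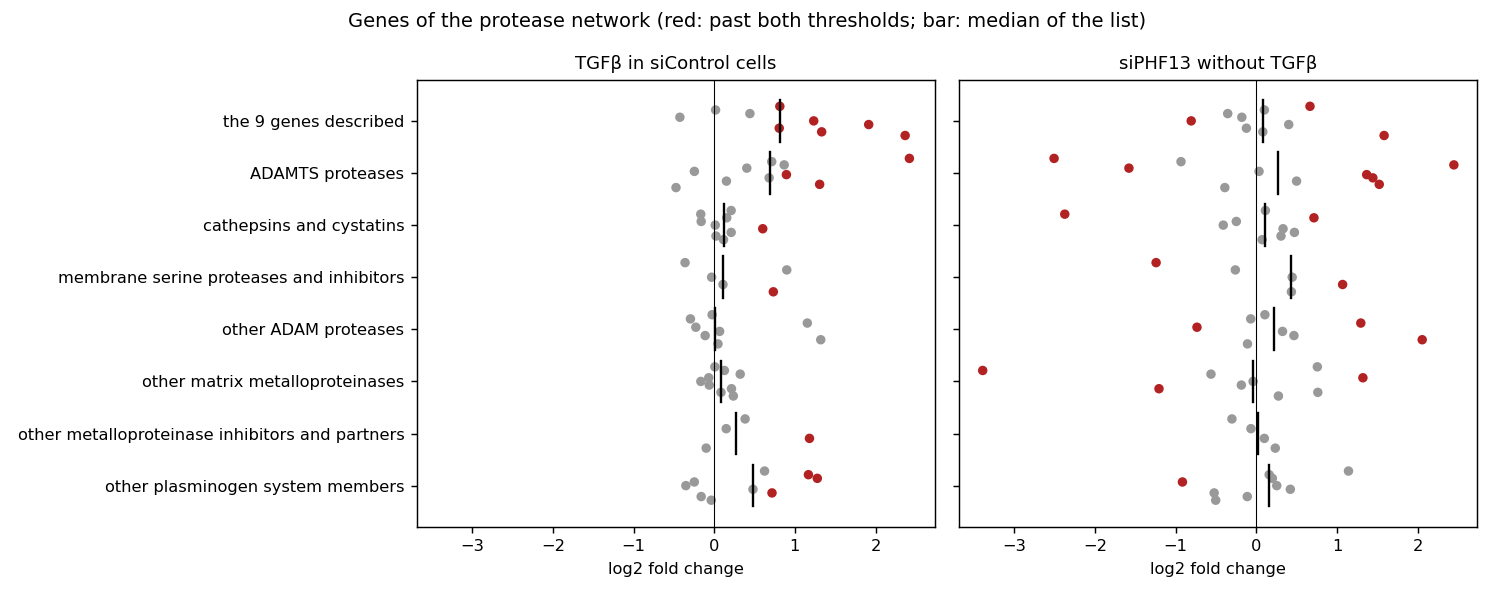
log2 fold changes of the 9 genes and of 7 other gene lists of the protease network (rows) with TGFβ in siControl cells and with depletion alone. Each point is a gene, red where both thresholds were passed, and black bars are list medians: 0.81 and 0.08 for the 9 genes.

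Over the 8 libraries, the genes with the profile most like each member were looked up by Pearson's r of log2 values among 11192 genes, as a description without a test, since the 8 points are 4 pairs of replicates. ADAM19 was closest to COL5A1 (r = 0.998), a fibrillar collagen gene, and LTBP2 (0.997), a matrix protein of the fibrillin family. MMP2 was closest to SLIT3 (0.995) and NRP2 (0.994), an axon guidance ligand and a semaphorin coreceptor. MMP14 was closest to ATP13A2 and F2RL2, MMP17 to PXDC1 and TPM1, and TIMP2 to NFASC and ENG, a TGFβ coreceptor, all with r of 0.992 to 0.994. MMP9 was closest to MFAP2 (0.978) and FAM132B (0.977), PLAUR to SAMD14 (0.994) and COL27A1 (0.977), TIMP1 to CRYGS (0.984), and PLAU to LSM3 (0.968) and CDC25C (0.965). Among the members themselves the closest pair was MMP14 and MMP2 (r = 0.977), and the most opposed was PLAU and MMP17 (-0.72).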

How the data were processed

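mRNA of 8 Panc-1 libraries (4 groups of 2, grouped by the labels) was sequenced as paired-end reads after mRNA library preparation. Per the labels and the study's methods, the authors trimmed the reads with Trim Galore 0.4.1, mapped them to hg19 with STAR 2.7.0, counted reads on exons with htseq-count (HTSeq 0.12.4) and normalized the counts with DESeq2. The deposited signal is thus a gene count divided by a library size factor. The annotation release and the strand setting are not given in the sources used here. The authors' 3 tables of comparisons, with log2 fold changes, standard errors and p-values, were not used. No filter of theirs is stated, and the lowest mean over libraries was 9.82.

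All comparisons came from 1 fit with limma 3.58.1 (R 4.3.3, trended variance) on log2(normalized count + 1) over the 8 libraries without a replicate block. Fold changes are on that scale, which understates changes of low genes. P-values were adjusted by Benjamini-Hochberg over 13307 genes, and a minimum of 10 normalized counts in 2 libraries removed 0 genes. Values were whole multiples of 1 step per library within 0.01 reads for all genes. In siPHF13 replicate 1 that step was 0.995, so its reads could be recovered too, but the siPHF13 group was left out of the count tests. edgeR 4.0.16 and DESeq2 1.42.0 were run on reads of the other 6 libraries, as alternatives for TGFβ in siControl cells and for depletion under TGFβ. Depletion alone, TGFβ in depleted cells and the interaction had no count test. The script was tested on simulated data. Alternatives were a pseudocount of 5, no minimum, TMM factors, only the libraries compared, a replicate block, no fold threshold, each library left out and, chosen after the data were seen, a correction for GC content and exon length over 12317 genes and a crossed block. Members and gene lists were chosen with earlier results of these data known. In the text the 9 members and PHF13 are always named. From each other list at most 4 called genes a comparison, those of largest change whose mean reached 100 normalized counts, are named, and MMP1, MMP7, C10orf55, CYFIP2 and SLC12A5-AS1 were added after their values were seen. Results for 2 other genes that the rules select are not reported here. Positions and exon overlaps are from GENCODE v44 on GRCh37. TIMP2 shares 5.91% of its exon bases with a transcript on the other strand and 3.61% with a gene on the same strand. MMP2 shares 3.70% with a transcript on the same strand. No counting interval is given for single genes, since replicates differed by more than counting noise.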

Additional observations from a re-analysis of the deposited data

Results flagged for a closer look

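The response to TGFβ differed between siControl and siPHF13 cells for 2 of the 9 genes past both thresholds, and for 3 by the adjusted p alone, beside 0.308% and 0.413% of all genes (interaction test of limma with Benjamini-Hochberg adjustment over all genes). ADAM19 (-1.21 on the log2 scale, adjusted p = 0.000117) and MMP2 (-0.92, adjusted p = 0.00298) responded less in depleted cells, and PLAU (0.52, adjusted p = 0.0316) differed the other way, with a lower value with TGFβ in siControl cells. The difference of ADAM19 was tested on the log scale only, and the counts that TGFβ added in both kinds of cells overlapped between libraries. That of PLAU was below the fold threshold, and its adjusted p was between 0.00384 and 0.341 with 1 library left out.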

How the results depend on the processing

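Of 711 log2 fold changes of the 9 genes under the alternatives over 5 comparisons, 681 kept their direction and their side of the thresholds. Of the rest, 22 came to pass, 3 no longer passed and 5 changed sign. Dropping the fold threshold, or the minimum that removed 0 genes, left the fit unchanged, and 16 of the 22 came from the former. Leaving out a library that a comparison does not use left its fold change unchanged too. Without a fold threshold, 6 members passed for depletion alone (3 with it) and 8 for depletion under TGFβ (0 with it). The latter count was 0 to 1 with 1 library left out, and 1 with the GC and length correction (MMP9, -0.58). The sign changed for MMP14 with depletion alone without siPHF13 replicate 1 (-0.0079, range with 1 library left out to 0.17), TIMP1 with TGFβ in siControl cells without siControl + TGFβ replicate 1 (-0.038, to 0.072), the interaction of PLAUR without siControl replicate 1 (-0.022, to 0.17), and TIMP1 under the GC and length correction with depletion alone (-0.059) and with depletion under TGFβ (-0.049, from 0.18). The causes were not tested. TIMP2 with depletion alone fell short without siPHF13 replicate 2 (0.53), PLAUR in depleted cells passed without siPHF13 replicate 1 (0.59), and the interaction of PLAU passed without siPHF13 replicate 2 (0.59). The interactions of ADAM19 (-1.32 to -1.11 with 1 library left out) and MMP2 (-1.03 to -0.80) passed in all 14 alternatives run. edgeR gave MMP9 an adjusted p of 0.0342 for depletion under TGFβ, and DESeq2 0.0623. Over all genes, 8 interactions were called higher and 33 lower, 0 and 12 without siControl replicate 2, and 36 and 75 without siPHF13 + TGFβ replicate 1. The replicate numbers are shared by labels only: deviations of same-numbered libraries correlated between -0.25 and 0.27. The replicate block changed no count of members called, 6, 5, 3, 0 and 2, and gave 7 and 32 interactions over all genes. A crossed block for TGFβ in depleted cells called 195 genes higher and 46 lower, beside 134 and 23 in the same 4 libraries without it. The interaction of MMP9 had a standard error of 0.27, beside 0.09 for PLAU. With 2 libraries a group, differences of MMP9 within its interval (-0.23 to 0.95) are not excluded.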
